A study of Bos taurus with 28 samples.

Results

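Genes of the contractile cells of the mammary gland were compared between cows of 3 DGAT1 genotypes. The set comprised 10 genes: the keratins KRT5 and KRT14, the filament genes MYH11, ACTA2 and ACTG2, the thin filament genes TPM2, CNN1 and TAGLN, the kinase gene MYLK and the oxytocin receptor gene OXTR. Members were all probe sets, the groups of short probes that measure a transcript on the array, for which the platform annotation gave exactly 1 gene symbol among these 10. This gave 12 probe sets of 24016, for 9 genes of 9155. KRT5, MYLK and TPM2 had 2 probe sets each, and ACTG2, a smooth muscle actin, had none with 1 symbol and was not analysed here.

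The cows were Holstein-Friesian dairy cows in mid-lactation on a control diet of grass silage, corn silage and concentrates. Each gave 1 surgical biopsy of mammary tissue and 1 array. There were 11 AA cows, with alanine on both alleles of the DGAT1 polymorphism, 13 KA cows with 1 alanine and 1 lysine allele, and 4 KK cows with lysine on both. The animals are separate, so p-values measure the spread between cows, with the technical spread of 1 array each. Nothing else about the animals' age or relationship was used, and cows of 1 genotype can share other alleles.

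Myoepithelial cells form a basal layer around the milk-secreting alveoli and along the ducts. They carry both the basal keratins KRT5 and KRT14 and the contractile proteins of smooth muscle. Oxytocin, released at milking, binds its receptor on these cells, calcium and calmodulin activate the myosin light chain kinase MYLK, and actin and myosin filaments then contract and eject milk. The smooth muscle of blood vessels shares the contractile genes but lacks the basal keratins, and the epidermis carries these keratins without the contractile set.

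All values are log2 values from which 1 baseline per probe set had been subtracted, so a value of 1 is a signal 2-fold above that baseline. Levels of different genes cannot be compared on this scale. The rounding steps of the values give only a coarse class of brightness. KRT5, MYH11, ACTA2, CNN1, TAGLN and MYLK each had a probe set in the bright class (log2 of 8 or more), and KRT14, TPM2 and OXTR were in the intermediate class (log2 from 4 to 8). No gene of the set was represented by a dim probe set, and all 10 milk synthesis genes measured, among them the caseins, were bright in this mammary tissue.

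Some arrays stood apart. AA 2 and AA 9 had an SD over probe sets of 0.86 and 0.78, against 0.21 to 0.35 in the other 26 arrays, and their milk synthesis genes averaged -1.39 and -2.08, against -0.24 to 0.15 elsewhere. KK 3, the K232K array numbered 35, differed from the other KK arrays in most of the genes described here. It was singled out from these same data, so values and counts without it are a description and lend no support to a difference. RNA integrity, read as the 3′ minus the 5′ signal of the control probe sets for actin and GAPDH, was also most extreme in AA 2 (0.60) and AA 9 (-0.44), which hold many of the highest values given below. Its part in those values was not tested. Array numbers were also uneven. All 4 KK arrays, 8 of the AA and 2 of the KA arrays have numbers from 29 to 42, while 11 KA and 3 AA arrays have numbers from 43 to 56. The sources used here do not say what the numbers stand for. The differences between KK and AA cows are therefore given with and without these arrays.

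None of the 12 probe sets passed the threshold between genotypes over all 28 arrays, but most leaned the same way. KRT5, MYH11, CNN1 and TPM2 were 1.48- to 1.6-fold lower in KK than in AA cows, ACTA2, TAGLN and MYLK were 1.19- to 1.3-fold lower, and OXTR was nearly level. With limma and Benjamini-Hochberg adjustment over all probe sets, the 12 probe sets held 0 calls at an adjusted p of 0.05, as did the array in the comparisons KK against AA, KA against AA, KK against KA and the slope per K allele (0 of 24016, 0%, each). At an unadjusted p of 0.05, 4 of the 12 were lower in KK than in AA cows and 0 higher, against 1.51% of all probe sets lower and 2% higher. The slope also had 4 lower and 0 higher at that p, against 4.48% and 4.68% of all probe sets. KA cows stood off the midpoint of AA and KK in 0 of 12 at the adjusted threshold, where 0.00416% of all probe sets did. In bulk tissue, fewer cells of a type and less RNA per cell cannot be told apart.

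**Figure D1:**
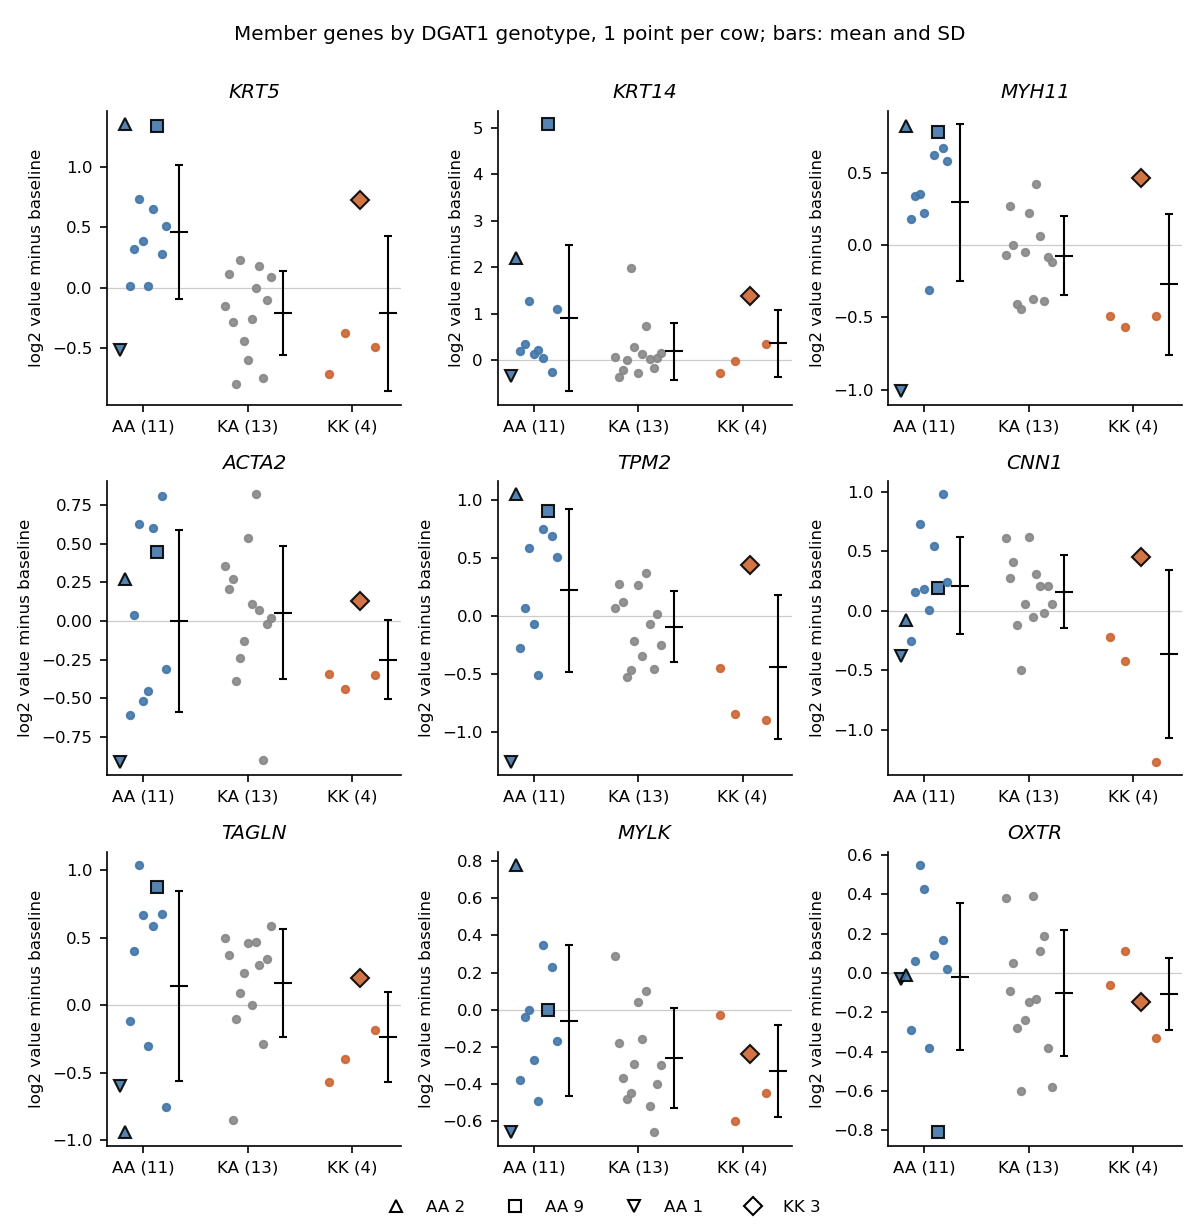
Log2 value minus baseline (vertical axes, scaled per gene) of the 9 genes in each cow, by DGAT1 genotype. Each point is 1 array, the bars beside each group show the mean and SD, and AA 1, AA 2, AA 9 and KK 3 have their own symbols. In KRT5, MYH11, TPM2 and CNN1 the KK 3 symbol lies above the other 3 KK points, and in KRT14 the AA 9 symbol lies at 5.08.

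Among the basal keratins, KRT5, the type II keratin of the basal cell skeleton, was lower in both groups that carry the K allele. In AA cows its log2 value ran from -0.52 through a median of 0.39 to 1.36, with a mean of 0.46 ± 0.56 (SD, n = 11). In KA cows it ran from -0.80 through -0.15 to 0.23, with a mean of -0.21 ± 0.35 (SD, n = 13). In KK cows it was -0.72, -0.38, 0.73 and -0.49 for KK 1 to KK 4. The highest values were those of AA 2 (1.36) and AA 9 (1.34), and all 13 KA cows and 3 of the 4 KK cows lay below the AA mean. The groups overlapped, since AA 1 stood at -0.52 and KK 3 at 0.73.

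KRT5 in KK minus AA cows was -0.67 ± 0.27 (SE) log2 (limma, unadjusted p = 0.0177, adjusted p = 0.909), with a 95% confidence interval of -1.22 to -0.13. Without KK 3 the difference was -0.99 ± 0.27 (limma adjusted p = 0.76), which is 1.99-fold lower, and without AA 2 and AA 9 it was -0.48 ± 0.23 (limma adjusted p = 1). KA minus AA was also -0.67, ± 0.19 (SE) log2 (limma, unadjusted p = 0.00123, adjusted p = 0.131), in a comparison where 11.1% of all probe sets were lower and 10.8% higher at an unadjusted p of 0.05. KK minus KA was 0.00 ± 0.26 (limma adjusted p = 1), and its 95% confidence interval of -0.54 to 0.54 leaves room for a difference in either direction. It was -0.32 ± 0.27 without KK 3 and 0.17 without KK 1, so the value near 0 rests on single cows.

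The fitted slope of KRT5 was -0.42 ± 0.13 (SE) log2 per K allele (limma, unadjusted p = 0.00323, adjusted p = 0.526), ranked 58 by p among the 24016 probe sets. Without KK 3 it was -0.55 ± 0.12 (unadjusted p = 9.98e-05, limma adjusted p = 0.297), with rank 4. KK 3 stood 1.26 log2 above the mean of the other KK arrays in KRT5, so leaving it out had to steepen the slope. The value and rank without KK 3 are a description and lend no support. Without AA 2 and AA 9 the slope was -0.29 ± 0.11 (unadjusted p = 0.0168, limma adjusted p = 1). The dim second KRT5 probe set was flat, with means of 0.07, 0.05 and 0.09 in AA, KA and KK cows, and did not follow the first over the arrays (Pearson r = 0.09, Spearman rho = -0.09, n = 28, permutation p = 0.631 and 0.637). The KRT5 result thus rests on 1 of its 2 probe sets, the bright one.

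KRT14, the type I partner with which KRT5 forms filaments, was dominated by single cows. Its log2 values ran from -0.34 through 0.22 to 5.08 in AA cows, from -0.36 through 0.05 to 1.99 in KA cows, and were -0.28, -0.02, 1.38 and 0.35 in KK 1 to KK 4. The AA 9 value lay 31.2-fold above the median of the other 27 arrays, and the next highest were AA 2 (2.19), KA 5 (1.99) and KK 3 (1.38). A few single cows of each genotype thus stood high in KRT14 while the medians of the groups lay between 0.05 and 0.22.

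KRT14 was -0.55 ± 0.61 (SE) log2 in KK minus AA cows (limma adjusted p = 0.91), and this turned to 0.06 ± 0.34 without AA 2 and AA 9 (limma adjusted p = 1). The slope per K allele went from -0.38 ± 0.29 to 0.00 ± 0.16. No direction with genotype can therefore be given for KRT14. The high cows were alike in other keratins only in part. AA 9 had log2 values of 0.69 for KRT17 and 1.05 for KRT15, which are further keratins of basal cells, and -1.47 for KRT10, a keratin of the upper epidermis. In the same order, AA 2 had 0.71, 0.14 and -1.4, and KK 3 had 0.71, 0.21 and -0.19. KA 5 had 0.30 for KRT17 and 0.15 for KRT15, but 2.96 for TGM3, an epidermal transglutaminase, where the other 27 arrays lay between -0.29 and 0.32. The other 2 epidermal genes measured were not high in KA 5, at -0.37 for KRT10 and -0.03 for DSC1, a desmosome cadherin. TGM3 was in the dim class, and 7 of the 10 epidermal genes listed had no probe set of 1 symbol, so a part of skin in this biopsy was not tested.

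**Figure D2:**
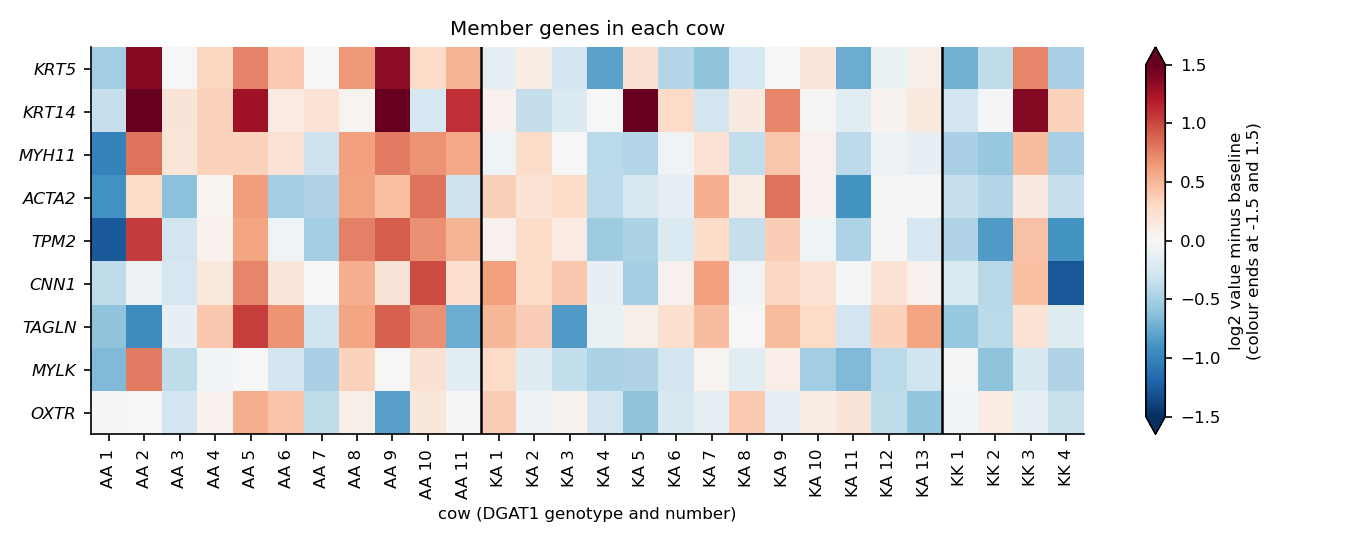
Log2 value minus baseline (colour) of the 9 genes (rows) in each of the 28 cows (columns), grouped by DGAT1 genotype. Colours end at -1.5 and 1.5, so the KRT14 values of AA 2, AA 9 and KA 5 lie beyond the scale. AA 1 is blue in most rows, AA 5, AA 8 and AA 10 are mostly red, and KK 3 is red in rows where the other KK columns are blue.

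Among the filament genes, MYH11, the smooth muscle myosin heavy chain, had KK 3 well above the other KK cows. The values were -0.49, -0.57, 0.46 and -0.49 in KK 1 to KK 4. In AA cows they ran from -1.01 through 0.35 to 0.82, with a mean of 0.29 ± 0.54 (SD, n = 11), and in KA cows from -0.44 through -0.07 to 0.42, with a mean of -0.07 ± 0.28 (SD, n = 13). Of the AA cows only AA 1 (-1.01) and AA 7 (-0.31) were below 0, and KK 1, KK 2 and KK 4 were lower than every KA and AA cow but AA 1.

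MYH11 in KK minus AA cows was -0.57 ± 0.24 (SE) log2 (limma, unadjusted p = 0.024, adjusted p = 0.909), with a 95% confidence interval of -1.05 to -0.08. Without KK 3 the difference was -0.81 ± 0.25 (limma adjusted p = 0.76), and without AA 2 and AA 9 it was -0.46 ± 0.23 (limma adjusted p = 1). The KA mean lay between, at -0.37 ± 0.17 for KA minus AA (limma adjusted p = 0.209) and -0.20 ± 0.23 for KK minus KA (limma adjusted p = 1). Leaving out KK 3 gave -0.44 ± 0.24 for the latter, and leaving out KK 2 gave -0.10. The slope was -0.30 ± 0.11 log2 per K allele (limma, unadjusted p = 0.01, adjusted p = 0.526).

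ACTA2, the smooth muscle alpha actin that marks both myoepithelium and vessel walls, spread widely within each genotype. Its values ran from -0.91 through 0.04 to 0.81 in AA cows and from -0.90 through 0.07 to 0.82 in KA cows, and were -0.34, -0.44, 0.13 and -0.35 in KK 1 to KK 4. AA and KA cows covered nearly the same range, and all KK values fell inside it. KK minus AA was -0.25 ± 0.27 (SE) log2 (limma adjusted p = 0.909), with a 95% confidence interval of -0.80 to 0.30, and -0.37 ± 0.30 without KK 3. It was -0.17 ± 0.27 without AA 2 and AA 9. The actins are nearly identical in sequence, and whether the ACTA2 probes also catch ACTG2 was not tested.

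Of the thin filament genes, TPM2, the beta tropomyosin that lies along the actin filament, ran from -1.26 through 0.51 to 1.05 in AA cows (mean 0.22 ± 0.70, SD, n = 11). It ran from -0.53 through -0.07 to 0.37 in KA cows (mean -0.09 ± 0.31, SD, n = 13). In KK 1 to KK 4 it was -0.45, -0.85, 0.44 and -0.90. The lowest cow of all was AA 1, followed by KK 4 and KK 2, and KK 3 was higher than every KA cow.

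TPM2 in KK minus AA cows was -0.66 ± 0.30 (SE) log2 (limma, unadjusted p = 0.034, adjusted p = 0.909), with a 95% confidence interval of -1.27 to -0.05. Without KK 3 it was -0.96 ± 0.31 (limma adjusted p = 0.76), and without AA 2 and AA 9 -0.49 ± 0.28 (limma adjusted p = 1). The slope was -0.33 ± 0.14 log2 per K allele (limma, unadjusted p = 0.0241, adjusted p = 0.526). The dim second probe set of TPM2 was flat, at -0.04, -0.02 and -0.04 in AA, KA and KK cows.

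CNN1, a calponin that binds actin and damps the myosin motor in smooth muscle, had KA values close to those of AA cows, with a difference of -0.05 ± 0.16 (SE) log2. It ran from -0.38 through 0.18 to 0.98 in AA cows (mean 0.21 ± 0.41, SD, n = 11) and from -0.50 through 0.21 to 0.62 in KA cows (mean 0.16 ± 0.31, SD, n = 13). KK 1 to KK 4 had -0.22, -0.42, 0.45 and -1.27. KK 4 was the lowest of all 28 cows, and the next was KA 5 at -0.50.

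CNN1 was -0.58 ± 0.23 (SE) log2 in KK minus AA cows (limma, unadjusted p = 0.0186, adjusted p = 0.909) and -0.52 ± 0.23 in KK minus KA cows (limma, unadjusted p = 0.028, adjusted p = 1). Over all 28 arrays it was the only member whose p was under 0.05 between KK and KA cows, where 1.39% of all probe sets were lower and 1.44% higher. Without KK 3, TPM2 joined it, at -0.64 ± 0.31 in KK minus KA (unadjusted p = 0.0476, limma adjusted p = 1). At an unadjusted p of 0.05, 1.08% of all genes were lower in that fit. The CNN1 difference was then -0.80 ± 0.23 from KA and -0.85 ± 0.24 from AA cows (limma adjusted p = 1 and 0.76). Without KK 4 it was -0.28 and the CNN1 difference from KA cows -0.22, so the size rests on that cow. Without AA 2 and AA 9 it stayed at -0.61 ± 0.24 (limma adjusted p = 1).

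TAGLN, or transgelin, an actin-bundling protein of smooth muscle, ran from -0.94 through 0.40 to 1.04 in AA cows and from -0.85 through 0.30 to 0.59 in KA cows. It was -0.57, -0.40, 0.20 and -0.18 in KK 1 to KK 4. The low cows AA 1, AA 2, AA 11 and KA 3 lay below every KK cow. KK minus AA was -0.38 ± 0.30 (SE) log2 (limma adjusted p = 0.909), with a 95% confidence interval of -0.99 to 0.23, and -0.53 ± 0.33 without KK 3. It was -0.42 ± 0.27 without AA 2 and AA 9. AA 2 was the lowest cow in TAGLN but the highest in KRT5, MYH11, TPM2 and MYLK, whereas AA 9, the other array that stood apart, was at 0.88 in TAGLN.

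Of the genes that control contraction, MYLK ran from -0.66 through -0.04 to 0.78 in AA cows and from -0.66 through -0.30 to 0.29 in KA cows. It was -0.03, -0.60, -0.24 and -0.45 in KK 1 to KK 4. KK minus AA was -0.27 ± 0.19 (SE) log2 (limma adjusted p = 0.909), with a 95% confidence interval of -0.65 to 0.11. It was -0.30 ± 0.21 without KK 3 and -0.17 ± 0.17 without AA 2, the highest cow, and AA 9. The second probe set, of the intermediate class, followed the first (Pearson r = 0.88, Spearman rho = 0.87, n = 28, permutation p = 1e-05 for both, the smallest possible, adjusted p = 3e-05 over 3 pairs of probe sets, and r = 0.86 without the 2 farthest arrays). It gave -0.45 ± 0.28 (limma adjusted p = 0.909), and -0.66 ± 0.30 without KK 3 (limma adjusted p = 0.76). KK 3 was at 0.33 in this second probe set and the other KK cows between -0.61 and -0.36, whereas in the first probe set KK 3 lay among them.

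OXTR, the receptor through which oxytocin starts contraction, had the smallest KK minus AA difference of the 9 genes. It ran from -0.81 through 0.02 to 0.55 in AA cows and from -0.60 through -0.13 to 0.39 in KA cows, and was -0.06, 0.11, -0.15 and -0.33 in KK 1 to KK 4. KK 3 was inside the range of the other KK cows, and AA 9, high in KRT14, KRT5, TPM2 and TAGLN, was the lowest cow. KK minus AA was -0.09 ± 0.19 (SE) log2 (limma adjusted p = 0.938). It was -0.18 ± 0.17 without AA 2 and AA 9, -0.08 ± 0.21 without KK 3 and -0.02 without KK 4. Over all arrays the 95% confidence interval of -0.47 to 0.29 leaves room for a difference the size of those in ACTA2 or MYLK.

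Counted as a list, all 9 genes were lower in KK than in AA cows, with a median of -0.55 log2, against 50.9% of all 9155 genes lower and a median of 0.00. That median is the value of KRT14, for which no direction could be given. Without KK 3 the median was -0.81 and again 9 of 9 were lower. Without AA 2 and AA 9 it was -0.42 and 8 of 9 were lower, KRT14 being the exception. In KA minus AA 7 of 9 were lower, with a median of -0.20. These genes vary together, so the count is not 9 separate observations, and it was not tested as a list. At an unadjusted p of 0.05 in KK minus AA, the count of 4 of 12 probe sets lower became 5 without KK 3 (2.63% of all probe sets), the added one being the second MYLK probe set. It became 2 without AA 2 and AA 9 (1.14%), namely KRT5 and CNN1, and 4 without all 3 arrays (2.16%). No member separated KK from AA cows without overlap, which 0.0916% of all probe sets did, and none did so without KK 3 (0.487%).

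KK 3 ran against the other KK cows in most of these genes. It was the highest KK array in 7 of 9 genes, against 29.1% of all probe sets, and stood more than 0.5 log2 above the mean of the other 3 in 6 of 9, against 7.69% of all probe sets. Most of these genes vary more between cows than most probe sets, so the 7.69% is not a like background for a fixed cut. The excess was 1.36 log2 in KRT14, 1.26 in KRT5, 1.17 in TPM2, 1.09 in CNN1 and 0.97 in MYH11. It was 0.58 in TAGLN, 0.50 in ACTA2, 0.13 in MYLK and -0.05 in OXTR. KK 3 was above the AA mean in 7 of 9 genes, whereas KK 1, KK 2 and KK 4 were all below it in 7 of 9. These are values of 1 cow that had been singled out from the same data, and they carry no test.

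Markers of other cells in KK 3 moved only in part with these genes. The mean over the 10 other basal epithelium genes was 0.24 in KK 3 and between -0.09 and -0.07 in the other KK cows. Luminal epithelium genes averaged 0.34 against -0.30 to 0.00, and fibroblast and matrix genes -0.01 against -0.49 to -0.21. The 10 markers of vascular smooth muscle and pericytes, the contractile cells of vessels, averaged -0.08 in KK 3 against -0.23 to -0.04, which is inside the range of the other KK cows. Milk synthesis genes averaged 0.10 against -0.04 to 0.11. The 3′ minus 5′ signal of the controls was 0.22 in KK 3 against -0.08 to 0.06. The part of these in the KK 3 values was not tested.

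Between genotypes, the marker lists gave the following values. Fibroblast and matrix genes were lower in KK than in AA cows in 10 of 11, with a median of -0.59 log2. This median was -0.32 without AA 2 and AA 9, beside -0.42 for the contractile genes. At an unadjusted limma p of 0.05, 4 of the 11 fibroblast and matrix genes were lower in KK minus AA (1.84% of all genes). In the slope 7 of the 11 were lower (5.2% of all genes). Of the 9 contractile genes, 4 were lower in each. Without AA 2 and AA 9 these counts were 2 and 1 for the fibroblast list, and 2 and 3 for the contractile genes. In those fits 1.19% of all genes were lower in KK minus AA and 1.55% in the slope. Low p-values were thus not particular to the contractile genes. The mean over the fibroblast list ran from -0.53 to 1.39 in AA, -0.33 to 0.23 in KA and -0.49 to -0.01 in KK cows. Vascular smooth muscle genes were lower in 7 of 10 (median -0.19, range of the mean -0.25 to 0.20 in AA and -0.23 to -0.04 in KK cows). Luminal genes were lower in 8 of 10 (median -0.20), endothelial genes in 5 of 9 (median -0.01), skeletal muscle genes in 5 of 7 (median -0.01) and milk synthesis genes in 0 of 10 (median 0.22). The medians were -0.13 in the vascular, -0.07 in the luminal and 0.04 in the milk synthesis list without AA 2 and AA 9. None of these genes passed the adjusted threshold. The part of the fibroblast values in those of the contractile genes was not tested.

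**Figure D3:**
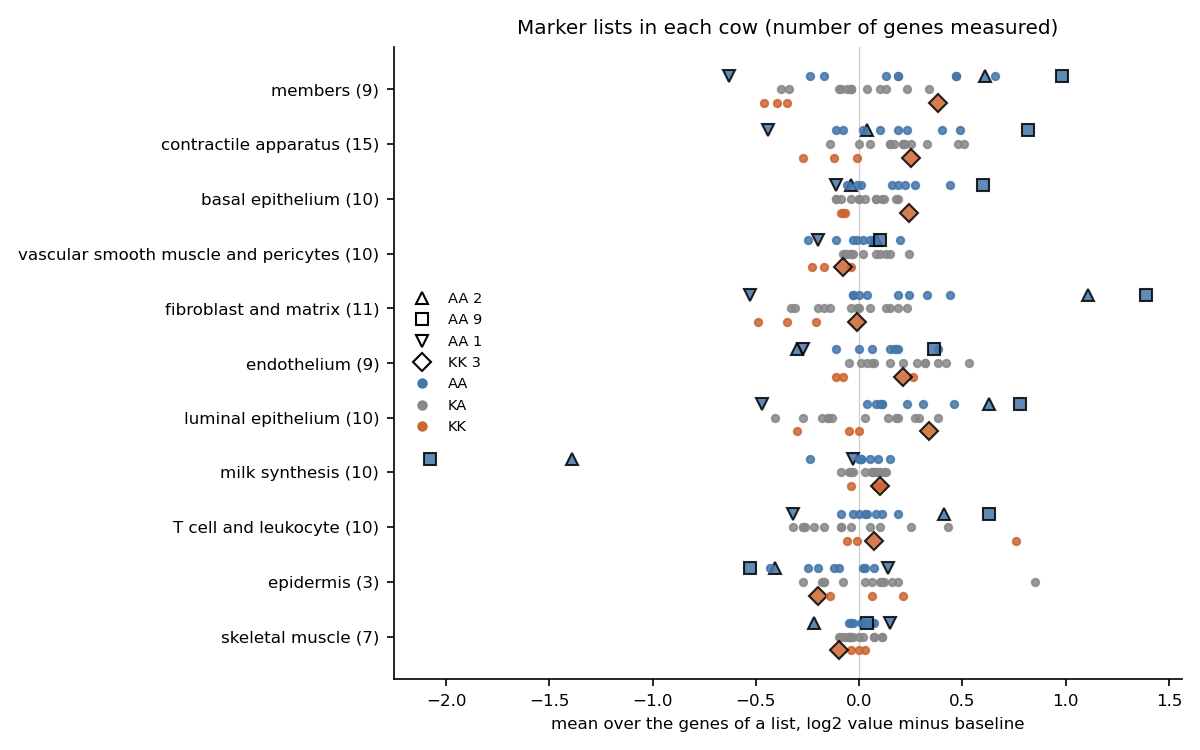
Mean log2 value minus baseline (horizontal axis) over the measured genes of each marker list, 1 point per cow, coloured by DGAT1 genotype with AA above, KA in the middle and KK below on each row. The number of genes averaged stands in brackets. KK 3 lies right of the other KK cows in the member, contractile apparatus, basal epithelium, luminal epithelium and fibroblast and matrix rows. It lies among them in the vascular row. AA 2 and AA 9 lie far left in milk synthesis and far right in fibroblast and matrix.

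Other genes of the contractile apparatus had a smaller median difference. Of 20 listed, 15 were measured, and 13 of the 15 were lower in KK than in AA cows with a median of -0.20 log2, but 0 reached an unadjusted p of 0.05. Over all genes 1.84% were lower at that p. Without KK 3, 2 of the 15 did, both lower, against 2.92% of all genes lower, and the median was -0.26. The list mean was 0.25 in KK 3 against -0.27 to -0.01 in the other KK cows, so leaving it out lowers the KK values. With AA 2 and AA 9 left out, 0 of the 15 did (1.19% of all genes lower), and the median was -0.11. The 3 with the smallest p in the slope were FLNA, the actin crosslinker filamin A (-0.23 ± 0.12 SE per K allele, limma adjusted p = 0.526), the myosin light chain MYL6 (-0.15 ± 0.08) and the tropomyosin TPM1 (-0.16 ± 0.09). These slopes were -0.18, -0.07 and -0.07 without AA 2 and AA 9. FLNA was at 0.72 in KK 3 against -0.49, -0.34 and -0.12 in the other KK cows, as in KRT5 and MYH11. Between KA and AA cows, 9 of 15 of the list were higher in KA, with a median of 0.05.

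Genes of oxytocin signalling and contraction control downstream of the receptor lay near 0. Of 10 measured of 18 listed, 6 were lower in KK than in AA cows, with a median of -0.04 log2. At an unadjusted p of 0.05 there were 0, against 1.84% of all genes lower and 1.8% higher. The smallest p in the slope belonged to ITPR1, a calcium release channel (0.14 per K allele, limma adjusted p = 0.53), the kinase PRKCA (0.11, limma adjusted p = 0.532) and the small GTPase RHOA (-0.06, limma adjusted p = 0.532). Transcription regulators of the smooth muscle programme were measured for 5 of 10 genes, and 2 were lower. SRF, the serum response factor that binds the promoters of many contractile genes, was at 0.01 in KK minus AA (limma adjusted p = 0.994), and MEF2C was 0.23 higher (unadjusted p = 0.0441, limma adjusted p = 0.909). KLF4 went the other way, at -0.46 (limma adjusted p = 0.909). The slope of MEF2C was 0.09 per K allele, and 0.05 without AA 2 and AA 9 (limma, unadjusted p = 0.307).

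The other basal epithelium genes leaned like KRT5 in part. Of 10 measured of 17 listed, 8 were lower in KK than in AA cows, with a median of -0.16 log2. KRT17 had a slope of -0.27 ± 0.11 (SE) log2 per K allele (unadjusted p = 0.0185, limma adjusted p = 0.526), KRT15 of -0.18 (unadjusted p = 0.0246, limma adjusted p = 0.526) and the laminin chain LAMB3 of -0.17 (unadjusted p = 0.0627, limma adjusted p = 0.526). Without AA 2 and AA 9 the slopes were -0.25 for KRT17 (unadjusted p = 0.0406), -0.12 for KRT15 (unadjusted p = 0.0698) and -0.11 for LAMB3. KRT17 was -0.05, -0.12, 0.71 and -0.25 in KK 1 to KK 4, so KK 3 stood apart in it as in KRT5. In the vascular list, where 7 of 10 slopes were below 0, RGS5, a pericyte marker, had 0.26 per K allele (unadjusted p = 0.0486, limma adjusted p = 0.526), and 0.16 without AA 2 and AA 9 (unadjusted p = 0.164).

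Array numbers bear on the KA comparison. Within numbers 43 to 56, where 11 KA and 3 AA arrays lie, KRT5 (-0.96, limma adjusted p = 0.0342), MYH11 (-0.78, adjusted p = 0.0227) and TPM2 (-0.84, adjusted p = 0.0233) were lower in KA than in AA cows past the threshold, as were 9.08% of all probe sets in either direction. AA 9 is 1 of those 3 AA arrays. Without it none of the 3 genes passed (0.025% of all probe sets did). KRT5 was then -0.64 (limma adjusted p = 0.276), MYH11 -0.73 (adjusted p = 0.133) and TPM2 -0.74 (adjusted p = 0.156). Within numbers 29 to 42, with 2 KA and 8 AA arrays, KRT5 was -0.39, MYH11 -0.05 and TPM2 0.13 (limma adjusted p = 1 for all 3). KK against AA can be compared only there: KRT5 was -0.58, MYH11 -0.42, CNN1 -0.48 and TPM2 -0.48 (limma adjusted p = 1 for all). With the array number range as a block over all arrays, these 4 were -0.65, -0.51, -0.56 and -0.60.

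AA 1 was the lowest cow of all in MYH11, ACTA2, TPM2 and MYLK, and second lowest in KRT14. Its difference from the median of the other AA cows was -1.81 log2 in TPM2, -1.47 in MYH11 and -0.07 in OXTR. Its fibroblast mean (-0.53) and luminal mean (-0.47) were also the lowest of the 28 cows, and its basal epithelium mean was -0.11. Without AA 1, KA minus AA became -0.77 in KRT5 (limma adjusted p = 0.0405) and -0.50 in MYH11 (limma adjusted p = 0.0497), so 2 of the 12 probe sets passed, against 525 of all probe sets (2.19%). No reason for leaving it out is given in the labels.

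Among themselves the genes fell into a tight contractile group and looser partners. With AA 2 and AA 9 left out because they stand apart, 34 of the 36 pairs of the 9 genes correlated positively over 26 arrays, with a median Pearson r of 0.51, and 21 had a permutation p under 0.05 after Benjamini-Hochberg adjustment over the 36 pairs. The share of all gene pairs that would pass was not computed, so these counts do not set the 9 genes apart from other genes. MYH11 and TPM2 were nearly parallel (r = 0.95, Spearman rho = 0.94, permutation p = 1e-05 for both, the smallest possible, adjusted p = 0.00012 and 7.2e-05), and r was 0.92 without the 2 arrays farthest from the median of MYH11. TPM2 and CNN1 followed (r = 0.85, rho = 0.91, permutation p = 1e-05 for both, adjusted p = 0.00012 and 7.2e-05; r = 0.86 without the 2 farthest). TPM2 had the highest median r with the other members (0.72) and MYH11 the next (0.68).

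KRT5 correlated with MYH11 at r = 0.72 (rho = 0.72, permutation p = 4e-05 for both, adjusted p = 0.00018; r = 0.70 without the 2 farthest). With its filament partner KRT14 it reached r = 0.56 (rho = 0.51, permutation p = 0.00225 and 0.00859, adjusted p = 0.00579 and 0.0172; r = 0.55 without the 2 farthest). Over the 26 arrays, KRT14 had weak correlations with the contractile genes, with r from -0.06 with CNN1 to 0.21 with MYH11 and TPM2. Over all 28 arrays, AA 2 and AA 9 included, r was 0.45 with MYH11 (rho = 0.37, permutation p = 0.0116 and 0.0504, adjusted p = 0.0231 and 0.0789) and 0.47 with TPM2 (rho = 0.30, permutation p = 0.00847 and 0.127, adjusted p = 0.0186 and 0.183). Both were 0.21 without the 2 arrays farthest in KRT14. OXTR had a median r of 0.24 with the other members, highest with CNN1 (r = 0.45, rho = 0.38, permutation p = 0.0217 and 0.0554, adjusted p = 0.0372 and 0.0867; r = 0.40 without the 2 farthest).

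The pairs were also correlated in other ways. On values minus the genotype mean over all 28 arrays, 32 of 36 pairs were positive and 19 passed. Within array numbers 29 to 42, 35 were positive and 19 passed, and within 43 to 56, 29 and 14, with 14 arrays each. MYH11 with TPM2 was the strongest pair in all of these, at r = 0.96, 0.95 and 0.98. Over all 28 arrays 20 pairs passed, and 20 again without KK 3. Except within 29 to 42, the pairs that passed in these runs included a negative one, KRT14 with OXTR. Its r was -0.43 over all 28 arrays (permutation adjusted p = 0.0411), but -0.17 without the 2 arrays farthest in KRT14. On values minus the genotype mean its r was -0.50 (permutation adjusted p = 0.0178), and -0.03 without the 2 farthest.

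**Figure D4:**
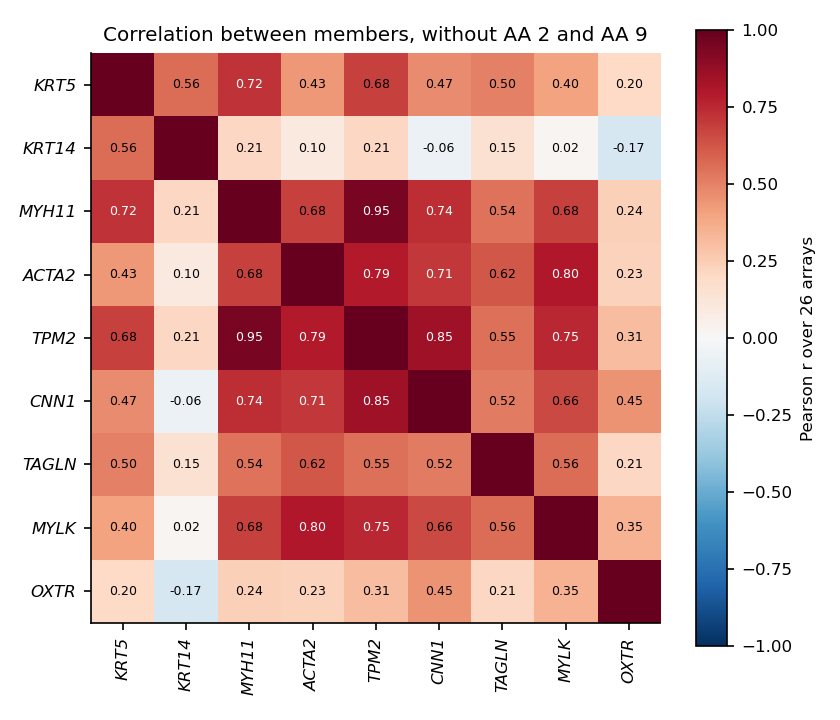
Pearson correlation (colour and printed value) between the 9 genes over 26 arrays, without AA 2 and AA 9. MYH11, ACTA2, TPM2, CNN1 and MYLK form a block of r from 0.66 to 0.95, KRT5 joins it through MYH11 (0.72) and TPM2 (0.68), and KRT14 and OXTR stay mostly below 0.5.

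The probe sets that stood for these genes varied more between cows than most. Over the 26 arrays the SD of KRT14 lay at percentile 98.2 of all probe sets, TPM2 at 97.1, TAGLN at 96.7, ACTA2 at 96.4, CNN1 at 95.8, KRT5 at 95.7 and MYH11 at 94.5. OXTR (82.4) and MYLK (80.1) had lower percentiles, but the second MYLK probe set was at 95.2. The dim second probe sets of KRT5 (4.27) and TPM2 (20.3) varied little. In AA cows other than AA 2 and AA 9, the mean over the 9 genes ran from -0.63 in AA 1 to 0.66 in AA 5, in KA cows from -0.38 to 0.34, and in KK cows it was -0.35, -0.40, 0.38 and -0.46.

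The genes whose pattern over the 26 arrays was most like KRT5, outside the members and among 9154 genes, included ATP1B1 (r = 0.85), a sodium pump subunit, the growth factor gene PTN (0.84), the receptor FGFR2 (0.83) and ZC3H11A (0.83). Those most like MYH11 were the cytoskeletal crosslinker MACF1 (0.87), MARCHF6 (0.80), RALGAPA1 (0.80), the matrix proteoglycan FMOD (0.80) and MYL6 (0.79). TPM2 alone was closer to MYH11 than MACF1. By rank among the 9154 genes, the other members lay further from MYH11, from 37 for CNN1 to 3003 for KRT14. In likeness to KRT5 the members ranked from 135 for MYH11 to 3181 for OXTR, with KRT14 at 762. Many genes outside the set were thus closer to KRT5 than any member. The genes named from outside the set have the highest of many correlations over the same arrays, and all these values are given as a description.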

How the data were processed

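The deposited table holds log2 values of 28 one-colour Affymetrix Bovine Genome Arrays. The authors processed them with Bioconductor 2.7 in R 2.13, per the labels' protocols, and the submitters' processing notes name RMA and GCRMA without saying which gave these values. The deposited log2 values lie around a baseline per probe set, a step not described in the sources used here. Signal over background is therefore unknown, and precision is limited by how many arrays there are.

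The 112 control probe sets were left out. The platform annotation gave 1 symbol for 13292 of 24016 probe sets, several for 86 and none for 10638. Of those with 1 symbol, 13263 were matched to the RefSeq table of ARS-UCD2.0 and took its symbol, whether or not it differed. Where a gene had several probe sets, the one in the brightest class stood for it, with ties settled by the probe set type. No coordinates are given, since no build is named.

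Tests used limma 3.58.1 in R 4.3.3 (lmFit, eBayes), with 1 mean per genotype or the number of K alleles as predictor, no covariate, and Benjamini-Hochberg adjustment over all probe sets at a threshold of 0.05. Confidence intervals are at 95%. Correlations used 100000 permutations in Python 3.11.15, two-sided. The scripts were tested on simulated data. The members and gene lists were chosen with earlier results of these data known. Named genes are all members, at most 3 of each other list with the smallest slope p, and the 5 genes most like KRT5 and MYH11, of which 1 is not reported here. TGM3, KRT10, SRF and MEF2C, and the array values of FLNA, KRT15 and KRT17, were picked after their values were seen, as far as they lie outside this rule.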

Additional observations from a re-analysis of the deposited data

Results flagged for a closer look

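In MYH11, the KK 3 array (0.46) lay far from the other 3 KK arrays (-0.49, -0.57 and -0.49). Its gap to the nearest of them was 0.921 of the range of the 4, above Dixon's 95% critical value for 4 samples. KK 3 had already been singled out in these data, so the ratio is a description and no test of that array. The 12 member probe sets were each checked in the KK group, the only one small enough for this rule, and 1 was marked. Chance marks about 1 in 20 groups. In ACTA2 and KRT5 the same ratio for KK 3 was 0.823 and 0.768, under that value.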

How the results depend on the processing

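The number of member probe sets past the threshold in KA minus AA went from 0 to 3 within array numbers 43 to 56 (KRT5, MYH11 and TPM2). Over the fits that leave out 1 cow it ran from 0 to 2, the 2 being KRT5 and MYH11 without AA 1. The cause was not tested. In KK minus AA, KK minus KA and the slope it was 0 in every alternative run: quantile normalization, centring, no dim probe sets, robust variances, array weights, array number block or range, the 3′ minus 5′ covariate, averaging the probe sets of a gene, and each array left out in turn. The slope within numbers 43 to 56, which hold no KK array, is the KA minus AA comparison. The count of correlated pairs ran from 14 to 21 over its alternatives.

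Some values of single genes changed sign. KRT14 in KK minus AA became 0.06 without AA 2 and AA 9, 0.12 with the array number block and without them, and 0.09 within numbers 29 to 42 without AA 2. Its slope became 0.00 without AA 2 and AA 9 and 0.03 within numbers 29 to 42 without AA 2. KA minus AA within numbers 29 to 42 became 0.13 in TPM2, and without AA 2 as well 0.28 in TPM2 and 0.05 in MYH11. Alternatives that combine an array number range or block with leaving out AA 2 or AA 9, and the correlations without KK 3, were added after seeing the data. Over all 9 genes, 3 of 387 alternative values changed sign in KK minus AA, 2 of 378 in the slope, 34 of 396 in KA minus AA and 26 of 378 in KK minus KA.

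No paired analysis was possible because the labels give no replicate numbers shared between genotypes. With 4 KK cows the KK values have little precision, and with 1 array per cow technical and animal spread cannot be told apart.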

Other observations

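The heterozygotes were also set against the midpoint of the homozygotes. In KA minus the midpoint of AA and KK, 0 of the 12 member probe sets passed the limma adjusted threshold, against 1 of all 24016 (0.00416%). KRT5 was at -0.34 ± 0.18 (SE) log2 from the midpoint (limma adjusted p = 0.547) and CNN1 at 0.24 ± 0.16 (limma adjusted p = 0.597). Without KK 3, CNN1 was at 0.37 ± 0.15 (unadjusted p = 0.0231, limma adjusted p = 0.798) and KRT5 at -0.18 ± 0.18 (limma adjusted p = 0.845). The contractile apparatus list was above the midpoint in 12 of 15 genes, with a median of 0.16 log2. Of all genes, 49.3% were below it, with a median of 0.00. This lean was not particular to that list. Milk synthesis genes were above in 10 of 10, adipocyte genes in 5 of 5 and endothelial genes in 7 of 9. Vascular and oxytocin signalling genes were above in 8 of 10 each. Basal and luminal genes were below in 7 of 10 each, and T cell and leukocyte genes in 8 of 10. Fibroblast and matrix genes were below in 7 of 11. The 9 members split into 5 below and 4 above, with a median of -0.04.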
